A study of Mus musculus with 72 samples.

Results

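Targets and components of the TGF-beta, Nodal and BMP pathways were followed through the subcellular fractions of mouse embryonic stem cells. The 10 genes were listed by symbol, and all 10 were found among the 51826 genes of the count files. Nodal, Lefty1 and Lefty2 encode secreted proteins and Tdgf1 (Cripto) encodes a co-receptor anchored at the cell surface, which makes 4 genes whose protein enters the secretory pathway. Id1, Id2, Id3, Smad6, Smad7 and Skil encode 6 regulators that act inside the cell, mostly on transcription.

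Nodal and the other ligands of the TGF-beta superfamily bind receptor kinases at the cell surface, which phosphorylate SMAD proteins that then move to the nucleus. Nodal needs the co-receptor Tdgf1, and the Lefty proteins, which are targets of Nodal signalling, block it. Id1, Id2 and Id3 are direct targets of BMP signalling and keep basic helix-loop-helix factors from binding DNA, Smad6 and Smad7 are inhibitory SMADs that are induced by the signals they dampen, and Skil (SnoN) represses SMAD-driven transcription.

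The cells were E14TG2a mouse embryonic stem cells, an established line, grown on gelatin in 2i + LIF medium that also held fetal bovine serum. 2i stands for CHIR99021, an inhibitor of the kinase GSK3, and PD0325901, an inhibitor of the kinase MEK, and all libraries share these agents. Cells received 4-thiouridine (4sU), a uridine analog that enters new RNA and is read as a T-to-C conversion (T2C) after alkylation, and were separated by sequential detergent extraction into cytosol, membrane and nucleus, beside an extract of the whole cell. Labeling lasted 15, 20 or 30 min in replicates 1 and 2. It lasted 20, 40, 60 or 120 min in replicates 3 and 4, and the times of 60 and 120 min are used for replicates 5 and 6. This gave 72 poly(A) libraries, each with 13185351 to 52975732 reads on genes (median 21494524.5). The replicates were separately passaged and labeled.

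Some libraries stand apart from their labels. The labels give 100 µM 4sU for all libraries of 60 and 120 min and 500 µM for the shorter times, whereas the rate of conversion in new RNA was 5.8 to 8.3% at 60 min in replicates 3 and 4 and 2.4 to 4.0% in replicates 5 and 6, and at 120 min 8.825 to 12.24% in replicates 3 and 4 against 3.3 to 4.0% in replicates 5 and 6, so the dose at 60 and 120 min is uncertain. The authors' methods instead give 500 µM for some replicates at 60 min and 100 µM for 2 replicates at 60 and 120 min. They leave out labeling with 500 µM beyond 60 min, because gene levels changed, and do not say which replicate numbers this concerns. The 120 min libraries of replicates 3 and 4 were set aside except in tests over labeling time, which left 64 libraries, 16 in each fraction, at 8 combinations of time and replicate pair with 2 replicates each. In whole-cell RNA of replicate 6, the library labelled 60 min had a higher median share of new RNA over 11461 genes (37.4%) than the library labelled 120 min (17.47%), in contrast to replicate 5 (21.9% and 38.71%) and to the 3 other fractions of replicate 6. Whole-cell half-lives and calls over labeling time are therefore given with and without replicate 6, while levels and ranks among all genes include it. Pluripotency genes had a summed whole-cell level of 5500 to 12390 TPM, a count scaled by exon length and library size, against 1.115 to 5.258 TPM for 6 markers of primitive endoderm. The 5 markers of membrane-bound translation summed to 3074 to 6085 TPM in membrane and 139.9 to 385.6 TPM in cytosol.

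The start of the reading frame can be compared between both kinds of gene. Secreted proteins begin with a hydrophobic signal peptide, and codons with T in the middle encode hydrophobic residues. The first 30 codons of 3 genes for secreted or surface proteins and of 2 Id genes are printed here from the mm10 transcripts, with every codon whose middle base is T in capitals:
Nodal (chr10:61418300-61418389, plus strand): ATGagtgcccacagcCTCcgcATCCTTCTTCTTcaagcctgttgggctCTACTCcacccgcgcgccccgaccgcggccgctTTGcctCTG
Lefty2 (chr1:180893184-180893273, plus strand): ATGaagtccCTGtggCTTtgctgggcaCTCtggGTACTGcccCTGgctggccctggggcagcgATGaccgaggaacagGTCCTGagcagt
Tdgf1 (chr9:110943237-110945843, minus strand, 90 coding bases that an intron interrupts): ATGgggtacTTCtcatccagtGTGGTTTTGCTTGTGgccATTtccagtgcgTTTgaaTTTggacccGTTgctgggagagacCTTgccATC
Id1 (chr2:152736341-152736430, plus strand): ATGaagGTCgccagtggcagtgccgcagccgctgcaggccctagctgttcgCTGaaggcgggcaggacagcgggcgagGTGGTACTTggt
Id3 (chr4:136143879-136143968, plus strand): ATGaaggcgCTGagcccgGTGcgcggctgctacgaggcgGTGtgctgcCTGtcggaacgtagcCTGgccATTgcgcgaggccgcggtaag

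Tdgf1 held 13 such codons, Lefty1, not printed, 12, and Nodal and Lefty2 10 each. The 6 regulators held 6 (Id1 and Smad7) to 8 (Id2 and Skil). Over 21534 genes the median was 9, and 42.24% of them held at least 10. The count was thus higher in the secreted and surface members than in the regulators but is common among all genes. The 3′ UTRs differed in another letter run, ATTTA, the core of AU-rich elements known from unstable mRNAs. Skil (chr3:31095058-31122577, plus strand, 7 exons) held 14 of them, which 2.5% of genes match or exceed, and 2 fall in a 30-base stretch of its 3′ UTR at chr3:31120151-31120180, with the runs in capitals: tggATTTAttctactctgctctataATTTA. Smad7 held 4, Id2 (chr12:25093799-25097140, minus strand) 3, and Smad6 (chr9:63953076-64022059, minus strand) 2. Nodal, Lefty2 and Tdgf1 held 1 each, the median over all genes, and Lefty1, Id1 and Id3 none. These counts depend on length, as the 3′ UTR has 3964 bases in Skil, 785 in Id2 and 448 in Smad6. Per kb Skil held 3.53 runs, fewer than Smad6 (4.46) and Id2 (3.82) and more than Smad7 (2.55). The median over all genes was 1.17 per kb. Reads of 75 bases cannot always be told apart between relatives, since 11.19% of Lefty1 windows also occur in Lefty2, 7.21% of Lefty2 windows in Lefty1 and 8.67% of Tdgf1 windows in the pseudogene Tdgf1-ps1.

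All 4 genes for secreted or surface proteins had higher RNA levels in membrane than in cytosol, and none of the 6 regulators did. Nodal ranged from 3.814 to 12.47 TPM in cytosol (median 9.854), 46.54 to 82.76 in nucleus (66.8), 91.52 to 167.4 in membrane (126.7) and 48.64 to 118.9 in whole cells (83.65). Every membrane library lay above every nuclear one, and every nuclear one above every cytosolic one. Tdgf1 was the most abundant member, with 218.4 to 454.9 TPM in cytosol (median 264.2), 478.3 to 974 in nucleus (775.8) and 1685 to 2261 in membrane (1970), again without overlap between the fractions. Over membrane against cytosol the log2 difference was 4.22 ± 0.16 (SE, 16 libraries each) for Nodal, an 18.59-fold higher level (edgeR quasi-likelihood test with Benjamini-Hochberg adjustment, adjusted p = 1.7e-34), and 3.20 ± 0.09 for Tdgf1 (edgeR adjusted p = 8e-42). Of all 16093 genes tested, 24.1% were higher in membrane and 12.9% were lower, with a difference of more than 0.5 on the log2 scale. Without replicate 2 the calls were 3576 higher and 3980 lower and without replicate 5 3667 and 4228, while the higher calls moved little.

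The Lefty genes shared this direction with a much wider spread, because their levels depended on the replicate pair. Lefty1 was at 0.06447 to 17.3 TPM in cytosol (median 7.869) and 2.094 to 169.8 in membrane (85.72), and Lefty2 at 0.9984 to 35.24 in cytosol (11.06) and 1.567 to 157.1 in membrane (36.89). Across libraries the ranges overlapped for both genes, but within a culture Lefty1 was higher in membrane in 16 of 16 and Lefty2 in 15 of 16. The difference was 3.94 ± 0.71 for Lefty1 (edgeR adjusted p = 2.4e-06) and 2.69 ± 0.69 for Lefty2 (edgeR adjusted p = 5.5e-04). Fits within single replicate pairs, added after the data were seen, gave Nodal 4.38, 4.38 and 3.94 for replicates 1 and 2, 3 and 4, and 5 and 6, Tdgf1 3.24, 3.39 and 3.03, Lefty1 4.21, 2.69 and 3.65, and Lefty2 3.10, 0.54 and 1.90. The membrane over cytosol difference of Lefty2 was thus smaller in replicates 3 and 4 than in 1 and 2 by 2.76 ± 0.22 (edgeR adjusted p = 4.1e-14) and that of Lefty1 by 1.71 ± 0.41 (edgeR adjusted p = 0.0014), in a test of the interaction in which 12.8% of 17755 genes fell and 5.41% rose. The values of replicates 3 and 4 rest on few reads. Lefty1 had 1 to 19 reads in a cytosolic and 27 to 116 in a membrane library, and Lefty2 23 to 45 and 43 to 74. In replicates 1 and 2 membrane libraries held 1835 to 2683 Lefty1 and 2034 to 3667 Lefty2 reads. The part of low counts and shared windows in this change was not tested.

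**Figure D1:**
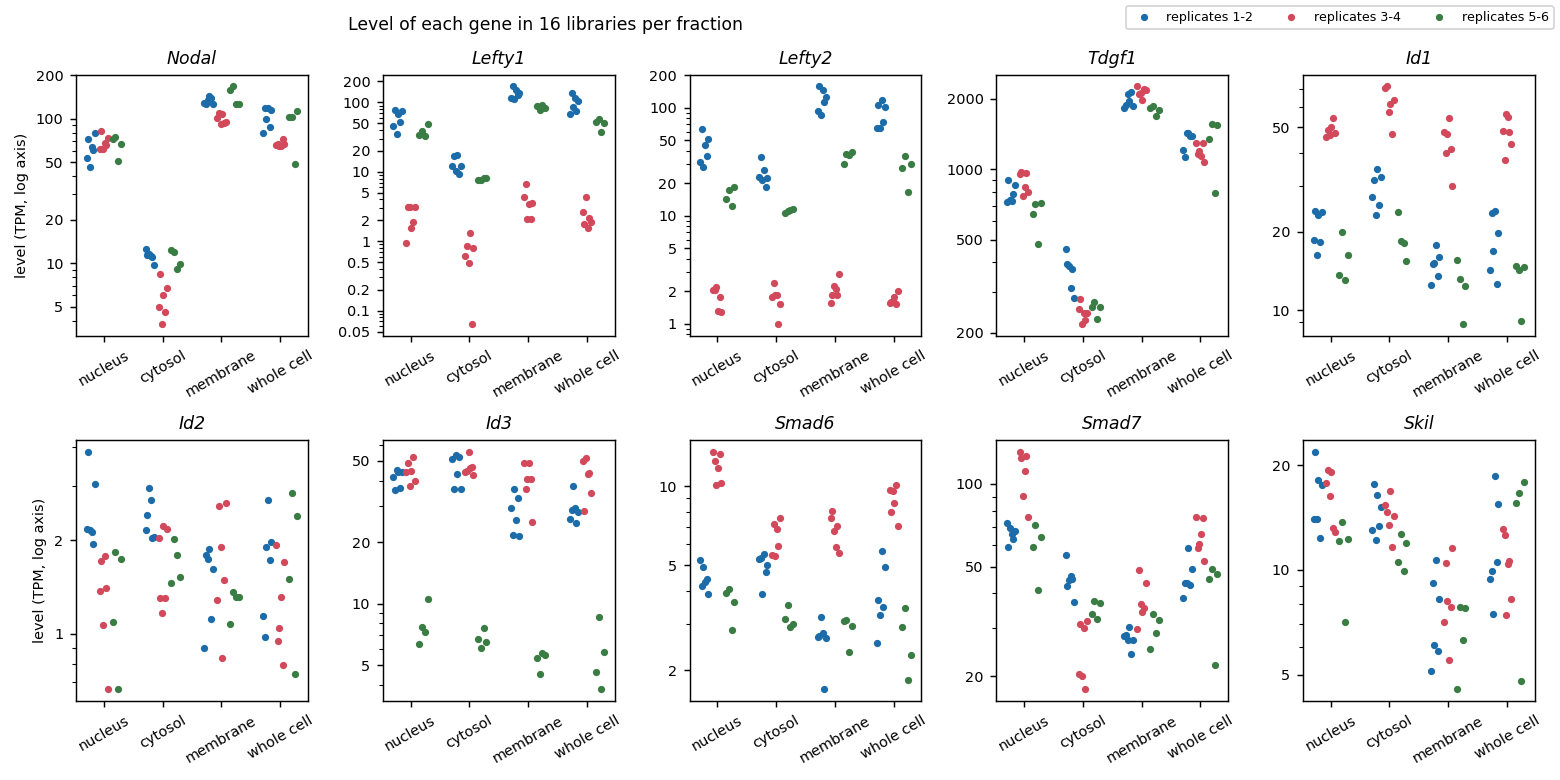
RNA level of each gene in TPM (log axis, scaled per panel) in nucleus, cytosol, membrane and whole cell, 1 point per library, 16 libraries per fraction, coloured by replicate pair. Nodal and Tdgf1 show cytosol, nucleus and membrane apart in every library, while the Lefty1 and Lefty2 points of replicates 3 and 4 lie far below those of the other pairs in all fractions.

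Among the regulators, levels in membrane and cytosol lay close together. Skil differed by -0.42 ± 0.09, below the size required. Scaled by total counts alone, it was lower in membrane than in its own cytosol in 16 of 16 cultures. On that scale 7295 of 16093 genes were called lower in membrane, so this count does not set Skil apart. Smad7 differed by 0.28 ± 0.10, Id1 by -0.25 ± 0.23, Smad6 by 0.14, Id2 by 0.07 and Id3 by 0.01. The value of Smad7 came from replicates 3 and 4 (0.86) rather than replicates 1 and 2 (0.10) or 5 and 6 (-0.02), a difference between the first pairs of 0.58 ± 0.14 (edgeR adjusted p = 0.0012). Skil changed between the same pairs by -0.54 ± 0.18 (edgeR adjusted p = 0.023). When libraries were scaled by total counts alone, the median over all genes moved from -0.16 to -0.47, 31.8% rather than 65.2% of all calls were in the higher direction, and Id1 (-0.52) and Skil (-0.73) were lower in membrane. The 4 genes for secreted or surface proteins were higher in membrane under both scalings.

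A wider list of 82 pathway genes followed the same division by protein type. Of 70 tested, 37 were higher in membrane and 3 lower. All 12 receptors and 11 of 13 ligands were higher, against 9 of 17 inhibitors and regulators, 4 of 19 targets and 1 of 9 signal transducers. Ltbp1, which anchors latent TGF-beta in the matrix, was higher by 4.29 ± 0.24, and the matrix protein gene Tgfbi by 3.89 ± 0.43. The 3 genes that were lower encode the intracellular signal proteins Smad4 (-0.52 ± 0.06), Smad2 (-0.50 ± 0.11) and Zfyve9 (-0.50 ± 0.12).

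Nuclear levels exceeded cytosolic ones for Nodal, Tdgf1, Lefty1 and Smad7, and Id1 was lower in nucleus. Over 16093 genes, 42.5% were higher in nucleus and 21.2% lower, with a median difference of 0.29, so 4 higher members of 10 is near the background. With the size factors of DESeq2 the median over all genes moved to 0.18, and every member kept its call. Without replicate 4 it was -0.02, with 5416 genes higher and 4949 lower, and with the 120 min libraries of replicates 3 and 4 5725 were higher and 5135 lower, so this background depends on the libraries used. Nodal stood out by size, with 2.67 ± 0.15, a 6.358-fold difference (edgeR adjusted p = 1.3e-24), followed by Lefty1 with 2.10 ± 0.67 (edgeR adjusted p = 0.0037) and Tdgf1 with 1.22 ± 0.08 (edgeR adjusted p = 8.1e-21). Lefty2, by contrast, differed by 0.57 ± 0.65.

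Smad7 was at 17.95 to 55.09 TPM in cytosol (median 35.25), 24.06 to 48.84 in membrane (30.03) and 41.15 to 131 in nucleus (69.87). It was higher in nucleus than in its own cytosol in 16 of 16 cultures, by 0.96 ± 0.10 or 1.948-fold (edgeR adjusted p = 1.1e-12). The size depended on the pair: 1.75 in replicates 3 and 4, 0.57 in 5 and 6, and 0.14 in 1 and 2, where it was not called. Id1 was at 13.12 to 54.3 TPM in nucleus (median 23.54) and 15.44 to 71.77 in cytosol (32.03), a difference of -0.62 ± 0.23 (edgeR adjusted p = 0.014), which had the same sign in each pair (-0.91, -0.71 and -0.42). Its ranges overlapped across libraries, while no culture had more Id1 in nucleus than in cytosol. Smad6 differed by 0.22, from -0.54 in replicates 1 and 2 to 0.51 in 3 and 4, both called in opposite directions. Id3 (-0.33), Id2 (-0.34 ± 0.17) and Skil (-0.08) were not called, although Id2 was when replicate 2 (-0.67) or 4 (-0.53) was left out. Id2 was the least abundant member, at 0.6627 to 3.862 TPM across the fractions, with 12 to 64 reads in a library.

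The share of new RNA is the T2C fraction of all T in exon reads divided by the conversion rate of the library, so it starts near 0 and approaches 100% as old RNA is replaced. Values above 100% can occur, since it is a ratio of estimates. The conversion rate was lower in cytosol than in nucleus of the same culture, as with 2.069 against 2.204% at 15 min in replicate 1. At 60 min in replicate 5 it was 2.377 against 3.246%. A lower rate raises the share of every gene in a library, and its part in the differences between fractions was not tested. In most genes new RNA appeared in the nucleus before the cytosol: of 11575 genes tested over the 64 libraries, 76.6% had a lower share in cytosol and 0.812% a higher one, with a median log2 difference of -0.88. Nodal was among the few in the opposite direction, with a share 1.729-fold higher in cytosol (0.79 ± 0.07, limma adjusted p = 6.3e-12).

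The cytosolic share of Nodal was 34.19 and 30.05% in the 2 replicates at 15 min, 55.97 and 65.12% at 20 min and 64.35 and 79.29% at 30 min. In the nucleus of the same cultures the means were 9.505 ± 0.8029%, 17.93 ± 0.3941% and 28.17 ± 7.715% (SD, n = 2), and in membrane 3.661 ± 0.9582%, 7.838 ± 0.4398% and 20.12 ± 2.531%. At each of these times every cytosolic value was above every nuclear one, and every nuclear one above every membrane one. Its cytosolic share at 15 min was higher than that of 99.7% of genes, whose median was 1.616%. In replicates 3 and 4 the cytosolic share was 46.91 ± 2.593% at 20 min, 43.11 ± 5.258% at 40 min and 78.06 ± 6.881% at 60 min, beside 30.79, 43.96 and 65.35% in nucleus, so that at 40 min the means lay within each other's spread. In replicates 5 and 6 it was 115.5 ± 18.04% at 60 min and 108.0 ± 22.92% at 120 min, against 70.35 and 99.33% in nucleus. The cytosolic share exceeded the nuclear share in 14 of 16 cultures. Within pairs the difference was 1.56 in replicates 1 and 2 (limma adjusted p = 1e-06), 0.27 in 3 and 4 (limma adjusted p = 0.038) and 0.40 in 5 and 6 (limma adjusted p = 0.15), and only the first of these is past 0.5 with an adjusted p under 0.05.

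The cytosolic RNA of Nodal also differed from its RNA elsewhere in intron content, a measure added after the data were seen. In replicates 1 and 2 Nodal had 32.34 to 60.1 T in introns per 100 T in exons in cytosol, 13.24 to 21.63 in nucleus and 1.861 to 2.634 in membrane. In replicates 5 and 6 it had 27.87 to 34.7 in cytosol, 5.335 to 10.31 in nucleus and 1.285 to 3.46 in membrane, and in replicates 3 and 4 a lower mean in cytosol (14.74 ± 11.11) than in nucleus (18.79 ± 8.248). Most genes showed the reverse order, with a median of 13.85 in cytosol and 47.31 in nucleus in replicates 1 and 2. The fewest reads also stood behind the cytosolic value, with 56 to 263 Nodal reads in a cytosolic library against 1406 to 3276 in a membrane library. The part of intron content and depth in the cytosolic share of Nodal was not tested. Bmpr2, a BMP receptor, and Ccn2, a secreted matrix protein, were the other 2 of 47 pathway genes with a higher share in cytosol (1.22 ± 0.13 and 0.55 ± 0.11), and 26 had a lower one.

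**Figure D2:**
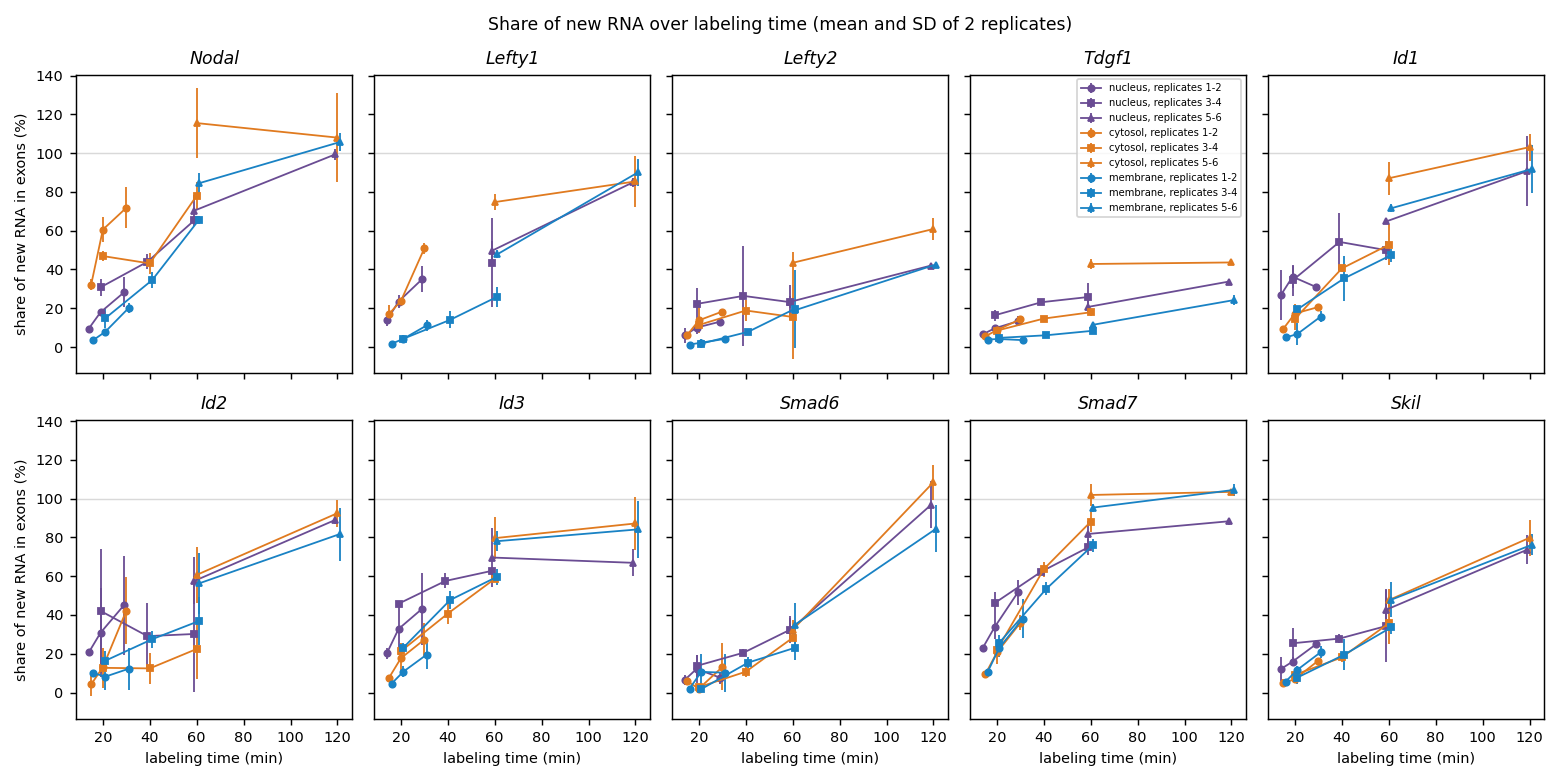
Share of new RNA in exons (percent) against labeling time (min) for each gene, as mean and SD of 2 replicates, in nucleus, cytosol and membrane for each replicate pair. Nodal in cytosol lies above its other fractions at 15 to 30 min, Tdgf1 stays under 45% at all times, and Smad7 exceeds 80% by 60 min in replicates 5 and 6 in all 3 fractions.

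New RNA of the secreted and surface members was scarcer in membrane than in cytosol. The difference was -1.26 ± 0.07 for Nodal (limma adjusted p = 1.1e-15), -1.20 ± 0.33 for Lefty2 (limma adjusted p = 0.0071) and -1.08 ± 0.09 for Tdgf1 (limma adjusted p = 3.5e-12), which makes 3 of 3 tested with a lower share in membrane. Lefty1 did not enter this fit, because fewer than 400 T were covered in some libraries of replicates 3 and 4. Of the 6 regulators none was called, and Id1 came nearest with -0.38 ± 0.13. Among all 11575 genes 10.2% had a lower share in membrane and 2.56% a higher one. The members are read against a closer background, however: of the 2205 genes with a higher level in membrane 1107 (50.2%) had a lower share there, with a median of -0.56, while among 7303 genes called in neither direction 0.534% did. Within those 2205 genes, 8.7% lay below Nodal, 11.2% below Lefty2 and 16.2% below Tdgf1.

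For Tdgf1 the cytosolic share rose from 5.486 ± 0.8403% at 15 min over 8.732 ± 1.493% at 20 min to 14.3 ± 0.2929% at 30 min, whereas the membrane share stayed at 3.875 ± 0.2276%, 4.133 ± 0.3269% and 3.553 ± 0.1805%. At 120 min in replicates 5 and 6 it had reached 43.62 ± 0.3034% in cytosol and 24.19 ± 2.431% in membrane. All 16 cultures had the lower share in membrane, and the difference was close in the 3 pairs (-1.02, -0.96 and -1.32). Lefty1 in replicates 1 and 2 had 17.14, 23.74 and 50.89% in cytosol at 15, 20 and 30 min and 1.645, 4.194 and 11.14% in membrane. Without replicates 3 and 4, a fit added after the data were seen, Lefty1 could be tested and was lower in membrane by -1.55 ± 0.15 (limma adjusted p = 6.9e-08), as were Nodal (-1.58), Lefty2 (-1.47), Tdgf1 (-1.14) and Id1 (-0.62).
The call of Lefty2 was lost when replicate 1, 2 or 6 was left out (-1.23, -1.17 and -1.19, with limma adjusted p = 0.07, 0.093 and 0.051), and Nodal in replicates 5 and 6 alone differed by -0.23. Intron content moved with the shares here too: in replicates 1 and 2 Tdgf1 had 12.43 to 14.99 intron T per 100 exon T in cytosol and 1.071 to 1.632 in membrane, Lefty1 5.99 to 13.98 and 0.2275 to 0.7665, and Lefty2 4.559 to 8.608 and 0.1302 to 0.4369, and its part in the difference was not tested. In the pathway list 12 of 47 genes had a lower share in membrane, led by the ligand gene Gdf3 (-1.31 ± 0.10) and the activin receptor gene Acvr2a (-1.16 ± 0.15), and Map3k7 (TAK1) alone a higher one (0.54 ± 0.09).

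**Figure D3:**
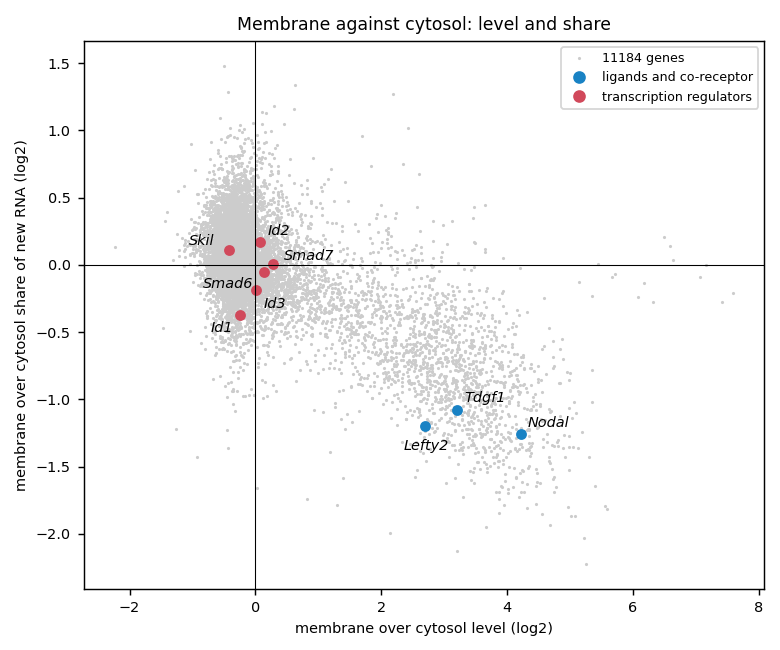
Log2 difference between membrane and cytosol in level (horizontal) and in share of new RNA (vertical) for 11184 genes (grey) and the 9 members tested for both. Nodal, Tdgf1 and Lefty2 lie at the lower right with other genes of high membrane level, and the 6 regulators lie near the centre of all genes.

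Smad7, Id1 and Id3 had early shares above those of most genes, and Smad6 had them less regularly. Smad7 had 23.09 ± 0.9728% new RNA in nucleus at 15 min and 51.8 ± 6.471% at 30 min, and 9.314 ± 1.948% and 35.95 ± 3.802% in cytosol. In whole cells at 20 min it was at 28.67 and 28.9% in replicates 1 and 2, above 98.4% of genes, and at 25.16 and 27.75% in replicates 3 and 4, above 97.7%. Id3 reached 20.2 ± 2.932% in nucleus at 15 min and Id1 26.76 ± 13.05%, above 97.6 and 98.6% of genes, with replicates of Id1 that were wide apart (17.53 and 35.99%). Skil was slower, with 12.13 ± 6.077% at 15 min, and Smad6 had 6.549 ± 2.637% at 15 min and 7.688 ± 3.158% at 30 min, above 82.8 and 40.6% of genes. In cytosol at 15 min Id1 (9.328%), Smad7 (9.314%), Id3 (7.741%), Smad6 (5.79%) and Skil (4.834%) lay above at least 88.0% of genes and Id2 (4.201 ± 5.941%) above 85.4%. Smad6 was at 2.02 ± 0.3584% in cytosol at 20 min in replicates 1 and 2, above 48.2% of genes, so its place varied from one time to the next.

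Over the 64 libraries, shares of the regulators were on average lower in cytosol than in nucleus. Each mean difference was smaller in size than the median over all genes (-0.88), but within replicates 1 and 2 this did not hold for most of them. Id2 differed by -0.83 ± 0.34 (limma adjusted p = 0.022), Smad6 by -0.56 ± 0.24 (limma adjusted p = 0.027) and Skil by -0.54 ± 0.14 (limma adjusted p = 6.6e-04), and these 3 were called. Each of these calls was lost when single replicates were left out: Id2 without replicate 1, 3, 5 or 6 (-0.38 to -0.84), Smad6 without replicate 1, 3, 4, 5 or 6 (-0.43 to -0.70), and Skil without replicate 3 or 5 (-0.46 and -0.50). Id1 (-0.49 ± 0.13), Id3 (-0.48 ± 0.13) and Smad7 (-0.34 ± 0.06) were short of 0.5, though Id1 was called without replicate 2, 3 or 5 (-0.51 to -0.57) and Id3 without replicate 5 (-0.50). Not called either were Tdgf1 (-0.10 ± 0.09) and Lefty2 (-0.08 ± 0.33). The pairs, which were labeled for different times, differed. In replicates 1 and 2 alone, at 15 to 30 min, Id1 (-0.99), Id3 (-0.91), Smad7 (-0.82), Skil (-0.93) and Id2 (-1.27) were lower in cytosol. Each lay below the median over all genes in that pair (-0.79), where 6847 of 12551 genes were lower. In replicates 5 and 6, at 60 and 120 min, all 6 regulators were between 0.06 and 0.31, none called, and the median over all genes was -0.19. Within replicates 3 and 4 that median was -1.37. Smad7 in replicates 3 and 4 changed from 46.11 ± 5.978% in nucleus and 21.91 ± 0.4261% in cytosol at 20 min to 74.93 ± 4.125% and 88.12 ± 5.483% at 60 min. This change of its cytosol over nucleus ratio was 1.27 ± 0.25 (limma adjusted p = 0.0027), in a test added after the data were seen that called 9.5% of genes in this direction, 2.13% in the other, and no other member. Within replicates 3 and 4 alone Id3 (0.97 ± 0.23) and Smad6 (1.73 ± 0.47) were called too. The call of Smad7 was lost without replicate 3 (1.11 ± 0.41, limma adjusted p = 0.21) and without replicate 4 (1.42 ± 0.41, limma adjusted p = 0.087), where over all genes the 1100 higher and 247 lower calls dropped to 34 and 4 and to 95 and 35. The median over all genes was 0.47, and with a pseudocount of 0.05 it was 0.09, with 751 higher and 658 lower.

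Intron shares ran ahead of exon shares in the nucleus. Only 4 members had enough intron T in all 16 nuclear libraries, and all 4 were higher in introns, like 96.3% of 10380 genes, against 0.0867% that were lower. Tdgf1 differed by 2.08 ± 0.07 (limma adjusted p = 5.7e-17), Smad6 by 1.96 ± 0.13 (limma adjusted p = 1.3e-12), Nodal by 1.34 ± 0.07 (limma adjusted p = 2e-14) and Smad7 by 0.89 ± 0.05 (limma adjusted p = 3.5e-13), which only 9.7% of genes fell below, the median being 1.83. The nuclear introns of Smad7 were at 61.78% at 15 min, 91.93% at 20 min and 111.4% at 30 min. Smad6 differed from the other members in how much intron it held, with 162.4 to 282.4 intron T per 100 exon T in nucleus in replicates 1 and 2 and 103 to 295.2 in whole cells, more than 94.6 and 93.8% of genes, while Skil had 8.438 to 11.73 in nucleus and Lefty2 2.333 to 7.508.

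In the nucleus the last exon of Smad7 held far more new RNA than the first. The first exon of Smad7 was at 2.746 ± 0.1021% at 15 min, when its last exon was at 28.5 ± 1.489%. At 20 min in replicates 3 and 4 they were at 12.9 and 55.44%, at 40 min at 41.88 and 67.9%, and at 120 min in replicates 5 and 6 at 75.07 and 90.02%. The distance between them thus widened up to 30 min in replicates 1 and 2, where they had reached 17.16 and 59.8%, and was smaller at 40 min and later in the other pairs. Smad6, the member with the longest gene among those given positions here, showed the same order in replicates 3 and 4: its first exon was at 0.6558 ± 0.9275% at 20 min, 2.201% at 40 min and 12.71% at 60 min, while its last exon was at 37.09 ± 8.889, 44.49 and 47.98%. At 15 min, however, the order was reversed in the mean (9.377 ± 8.022 and 3.925 ± 0.3759%), with as few as 895 T in an exon. At 120 min in replicates 5 and 6 its exons were at 83.72 ± 53.05 and 104.9%, where the replicates differed too much to order them. Tdgf1 had 1.27 ± 0.3917 and 8.958 ± 1.375% at 15 min. Over 3531 genes with both exons measured the medians at 15 min were 0.8035 and 3.69%, and the last exon was higher in 82.7%.

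**Figure D4:**
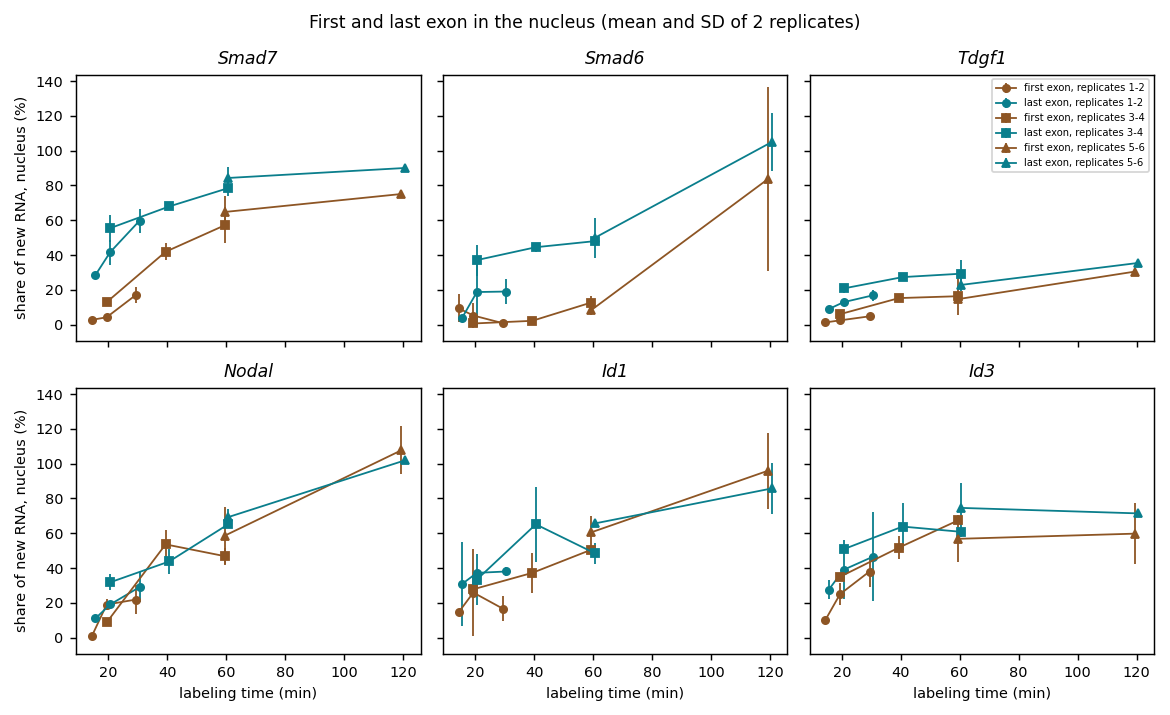
Share of new RNA (percent) in the first and last exon of 6 members in the nucleus against labeling time (min), as mean and SD of 2 replicates for each replicate pair. In Smad7 and Smad6 the last exon lies well above the first at 30 to 60 min, while in Nodal both lie together at 20 min in replicates 1 and 2.

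Apparent half-lives were fitted to the shares of all times with 1 exponential after a delay of 5 min, and each is given as a description with the range found by leaving out each replicate in turn. In whole cells they ran from 28.97 min for Smad7 (28.09 to 29.75) over 44.07 min for Nodal (42.54 to 46.06), 50.99 min for Id3 (46.68 to 55.21) and 52.59 min for Id1 (46.68 to 60.04) to 66.46 min for Id2 (55.21 to 80.36). Lefty1 at 78.26 min (69.15 to 92.15), Smad6 at 81.07 min (78.26 to 83.99) and Skil at 82.16 min (79.3 to 84.74) followed. The ranges of Id3 and Id1 overlap, as do those of Lefty1, Smad6 and Skil. The range of Id2 overlaps those of Id1, Lefty1, Smad6 and Skil, so the order among these genes is not settled. These ranges keep at least 1 replicate of each pair, so they do not show the effect of a whole pair. Without replicates 3 and 4, a fit added after the data were seen, Id3 was at 60.04, Smad6 at 61.92 and Skil at 67.05 min. Id2 (52.82), Lefty1 (68.55) and Smad7 (26.75) also fell outside their ranges, while Nodal, Id1, Lefty2 and Tdgf1 stayed inside. The order of Id3 against Smad6 and Skil is thus not settled either. The fit gave all genes the same delay, so late labeling of first exons in long genes, as seen in Smad6, was not corrected. The authors consider length-dependent labeling a likely part of why such direct fits gave higher whole-cell half-lives than their model. Its part in the values here was not tested. Lefty2 at 173.3 min (159.4 to 191) and Tdgf1 at 280.5 min (250.1 to 320.2) were apart from the rest. Smad7 was shorter than all but 0.8% of 12673 genes and Nodal than all but 2%, while 63.6% were shorter than Tdgf1. The median over the 10 members was 72.36 min and over all genes 212.4 min. Without replicate 6 the median was 74.23 min over the members and 189.3 min over all genes, and without replicate 5 it was 71.65 and 241.4 min. In the fit without replicate 6 Smad7 was at 28.33, Nodal at 42.54, Id3 at 47.51, Id1 at 47.09, Lefty1 at 69.15, Smad6 at 79.3, Skil and Id2 at 80.36, Lefty2 at 159.4 and Tdgf1 at 250.1 min.

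The secreted and surface genes with a fit in each fraction differed more between cytosol and membrane than the regulators. Nodal had 16.9 min in cytosol (15.96 to 17.98), 39.46 min in membrane and 36.93 min in nucleus. Tdgf1 had 122.8, 316 and 147.8 min, and Lefty2 96.32, 174.9 and 127.2 min. Smad7 had 25.71 min in cytosol, 28.09 in membrane and 23.96 in nucleus, Skil 72.28, 72.6 and 67.05, and Id3 40.34, 41.8 and 32.07. In the same order Id1 had 39.29, 49.22 and 35.97 min, Smad6 72.6, 85.87 and 71.33, and Id2 60.57, 63.03 and 46.26. The whole-cell values of Nodal, Smad7, Skil, Id1, Id2 and Id3 lay above those of every fraction, although the whole cell holds these fractions. Those of Smad6, Lefty2 and Tdgf1 did not. Whole-cell and fraction values are thus not on 1 scale, and the cause was not tested. The ATTTA runs are set beside the whole-cell half-lives as a description. Skil, with 14 (3.53 per kb of 3′ UTR), had 82.16 min, Smad7, with 4 (2.55 per kb), 28.97 min, and Id2, with 3 (3.82 per kb), 66.46 min. Smad6, with 2 (4.46 per kb), had 81.07 min. Nodal, Lefty2 and Tdgf1, with 1 each (1.42, 0.78 and 0.91 per kb), had 44.07, 173.3 and 280.5 min. Id1, Id3 and Lefty1, with none, had 52.59, 50.99 and 78.26 min. A link between runs and half-lives was not tested.

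**Figure D5:**
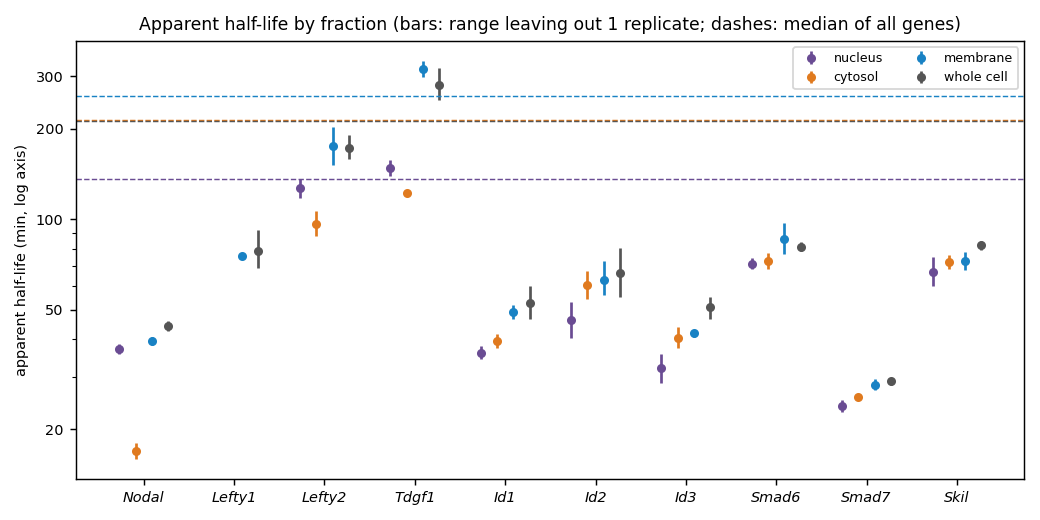
Apparent half-life in min (log axis) of each member in nucleus, cytosol, membrane and whole cell, with bars for the range when each replicate is left out and dashed lines for the median of all genes in each fraction. Smad7 is the shortest in whole cells, and Tdgf1, Nodal and Lefty2 lie higher in membrane than in cytosol.

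Whether the levels changed over the labeling time could be tested only with 2 libraries against 2. In whole cells 0 of 40 tests of the 10 members over 4 time contrasts were called by edgeR, with 2 at an unadjusted p under 0.05 by edgeR, and DESeq2 also called 0. The most calls among all genes came at 120 against 20 min, where 0.0712% were higher and 0.0415% lower. At 120 against 20 min in replicates 3 and 4 the whole-cell differences were -1.20 ± 0.56 for Lefty1, which 4.3% of genes fell below, -0.80 ± 0.29 for Id3, -0.61 ± 0.53 for Id2 and -0.55 ± 0.29 for Smad6, with all 6 regulators below 0, so sizes of this order were not detectable as changes in this design. Leaving out replicate 6 also gave 0 member calls. In the nucleus Id3 alone was called, at 120 against 20 min in replicates 3 and 4, beside 1.35% of genes in that direction and 1.56% in the other. It was at 44.26 and 49 TPM at 20 min, 37.71 and 44.64 at 40 min, 51.95 and 39.84 at 60 min, and 27.37 and 15.34 at 120 min, so both values at 120 min lay below all others. The level fell by 0.92 ± 0.18 on the log2 scale, or 1.897-fold (edgeR adjusted p = 0.016). The call was lost without replicate 4 (-0.73, edgeR adjusted p = 0.098) and without replicate 5 (-0.94, edgeR adjusted p = 0.051), whose libraries only add to the estimate of the spread. This contrast uses the 120 min libraries of replicates 3 and 4, which were set aside above, and their conversion rates of 10.37 to 12.24% in nucleus leave the dose of 100 µM in their labels uncertain. For replicates 5 and 6 from 60 to 120 min the nuclear difference was -0.65 ± 0.19 (edgeR adjusted p = 1.0).

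The replicate pairs differed in the signalling targets themselves. At 20 min, the time that replicates 1 to 4 share, Lefty2 in whole cells was lower in replicates 3 and 4 than in 1 and 2 by 56.78-fold (-5.83 ± 0.27, edgeR adjusted p = 1e-09) and Lefty1 by 46.4-fold (-5.54 ± 0.40, edgeR adjusted p = 5.7e-07). Nodal was also lower (-0.76 ± 0.16, edgeR adjusted p = 0.0032), and Id1 (1.05 ± 0.23, edgeR adjusted p = 0.0039) and Smad6 (1.00 ± 0.30, edgeR adjusted p = 0.022) were higher. Of all 16858 genes 10.4% were higher and 11.9% lower. Without replicate 3 the calls of Id1 (0.94), Nodal (-0.67) and Smad6 (0.94) were lost, without replicate 4 those of Nodal (-0.85) and Smad6 (1.07), and without replicate 1 that of Smad6 (0.90), whereas the Lefty genes were called each time. Calls over all genes also dropped, from 1746 higher and 2009 lower to 128 and 216 without replicate 3 and 631 and 823 without replicate 4. In the nucleus the same contrast gave -4.46 ± 0.31 for Lefty2, -4.78 ± 0.39 for Lefty1, 0.94 ± 0.17 for Id1 and 1.15 ± 0.24 for Smad6, all called by edgeR, and 0.07 for Nodal, beside 5.74% of genes higher and 7.16% lower.

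Outside their 120 min libraries, replicates 3 and 4 stayed apart from both other pairs in Lefty1, Lefty2, Id1 and Smad6. Whole-cell Lefty1 ranged from 67.68 to 136.9 TPM in replicates 1 and 2, from 1.563 to 4.325 TPM (18 to 45 reads) in 3 and 4 and from 37.77 to 58.28 TPM in 5 and 6. Lefty2 ranged from 64.35 to 117.7, from 1.527 to 2.03 and from 16.65 to 35.46 TPM, so for both genes the 3 pairs did not overlap. Id1 ran the other way, with 12.63 to 24.02, 37.68 to 56.52 and 9.096 to 14.79 TPM, as did Smad6 with 2.538 to 5.662, 7.036 to 10.09 and 1.829 to 3.429 TPM. Replicates 3 and 4 were thus low in Lefty and high in Id1 and Smad6, with the exception that Smad6 at 120 min was 3.759 TPM in replicate 3 and 8.134 TPM in replicate 4. Id3 set replicates 5 and 6 apart, with 3.809 to 8.605 TPM against 24.68 to 37.58 in 1 and 2 and 28.46 to 51.79 in 3 and 4. The level of a bulk sample does not tell fewer expressing cells from less RNA per cell. Replicates 5 and 6 share only 60 and 120 min with 3 and 4, where the dose may differ, so their levels are given with no test.

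Some other gene groups moved with this division, and their part in it was not tested. All 5 markers of membrane-bound RNA were lower in replicates 3 and 4 at 20 min (-0.68 to -1.37), with a summed whole-cell level of 2054 to 2497 TPM against 3456 to 4976 TPM in 1 and 2. Of 8 pluripotency genes 5 were higher, among them Nanog (1.02) and Esrrb (0.78), and 0 lower. Among 4 nuclear RNAs Neat1 (-1.10) and Meg3 (-1.34) were lower and Malat1 was at -0.49, with a summed level of 88.92 to 231.4 TPM against 270 to 388.1 TPM. None of 6 primitive endoderm markers was called, and 1 of 7 markers of epiblast or mesoderm was, Eomes, itself a Nodal target (1.35 ± 0.28). In the pathway list 9 of 74 genes (12.2%) were higher and 13 lower, near the 10.4% higher and 11.9% lower among all genes. Tgfbi (-2.14 ± 0.25) and Bmp7 (-1.72 ± 0.27) were among the lower ones, and Msx1 (3.32 ± 1.15) and Zfp423 (1.07 ± 0.18) among the higher. Across the 18 whole-cell libraries, which share their replicate pairs, the 3 genes most like Lefty1 in log2 level were Lefty2 (Pearson r = 0.984), Cyp4f13 (0.98) and Slc5a11 (0.978). Those most like Id1 were Ubald1 (0.982), Utf1 (0.975) and Samd1 (0.973), and Id1 had 0.933 with Smad6 and -0.771 with Lefty1. These correlations are descriptions over 3 sets of libraries rather than 18 independent points.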

How the data were processed

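RNA of 72 libraries was sequenced by the authors and mapped to mm10 with STAR 2.7.6, per the labels, which also name HTSeq 0.11.1 and RSEM 1.3.3. The deposited gene counts are raw read counts, of which 30.392 to 48.765% sat in rows that name no gene and were left out. The deposited T2C tables give counts of T and of T2C for exons and introns, after sites seen in unlabeled libraries were removed, and the authors' conversion rate p_conv of new RNA as a fraction. The share, T2C / T / p_conv, was computed here as a ratio of these values, the same quantity as the ratio columns deposited by the authors, with no subtraction of background. TPM used Gencode M21 exon lengths (99.6% of IDs matched).

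Counts were tested with edgeR 4.0.16 (quasi-likelihood, TMM) and, as an alternative, DESeq2 1.42.0. Numbers of cultures with the higher or lower level in a fraction used libraries scaled by total counts alone, without TMM. Shares were tested with limma 3.58.1 on log2(share + 0.01) for genes with at least 400 T in every library. The added 0.01 shrinks log2 differences between low shares. Over all genes the median cytosol over nucleus difference was -1.06 with 0.002 added and -0.55 with 0.05. Calls needed an adjusted p below 0.05 over all genes and an absolute log2 difference above 0.5. Scripts were tested on simulated data. The members, the pathway list and the tests were chosen with earlier results of these data known. Named pathway genes were up to 3 called genes per direction with the largest change, and the 3 genes most correlated with Id1 and Lefty1; a few items that these rules name are not reported here. Fractions of 1 culture share a plate, so a replicate block was also fitted: deviations of fractions correlated by -0.409 to 0.634 (median 0.2805) over 48 pairs, above 0.1 in 37. Depth and the number of T limit low genes, and no library without 4sU and no 180 min library was used here. Figures were drawn with matplotlib 3.10.9.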

Additional observations from a re-analysis of the deposited data

Results flagged for a closer look

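Single libraries far from the others at the same fraction and time were sought in groups of 4, each of which pools 2 replicate pairs. Of 230 groups 11 held one, where chance flags about 1 in 20 (5%). Among levels, Smad6 in replicate 4 at 120 min was 6.611 TPM in cytosol (others 3.138 to 3.531) and 8.134 TPM in whole cells (others 2.926 to 3.759). The library of Smad7 in membrane at 20 min, replicate 4, had 48.84 TPM (others 27.12 to 30.29). Id2 had 2.631 TPM in membrane at 60 min, replicate 4 (others 1.311 to 1.488), Id3 53.19 TPM in cytosol at 20 min, replicate 1 (others 43.09 to 44.39), and Skil 7.088 TPM in nucleus at 60 min, replicate 5 (others 12.31 to 13.19). Among shares of new RNA, Id3 was at 23.31% in nucleus at 20 min, replicate 1 (others 42.28 to 46.09%), and at 67.7% in whole cells at 60 min, replicate 4 (others 50.29 to 52.73%). Skil was at 16.34% in whole cells at 20 min, replicate 1 (others 7.764 to 9.092%), and at 78.98% in nucleus at 120 min, replicate 5 (others 67.75 to 69.09%). Nodal was at 75.94% in nucleus at 60 min, replicate 5 (others 64.48 to 66.22%).

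Tests of a difference between groups found 5 member results. From 20 to 60 min in replicates 3 and 4 the cytosol over nucleus ratio of the share of Smad7 changed by 1.27. Between replicates 3 and 4 and replicates 1 and 2 the membrane over cytosol ratio of the level changed by 0.58 for Smad7, -0.54 for Skil, -1.71 for Lefty1 and -2.76 for Lefty2. The causes of these differences were not tested.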

How the results depend on the processing

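Of 934 values computed under alternatives, 116 were counts or medians over the members, of which 88 stayed within 1.5 times the reported count, or for the median within the spread, and 818 were of single genes, of which 719 kept their call, 4 reversed, 39 lost and 30 gained a call and 26 moved. Fits within or without replicate pairs were chosen after seeing the data. For the cytosol over nucleus share (4 called members) the count was 2 with a pseudocount of 0.05, 1 with a minimum of 2000 T, which left 4 members, 2 with the 120 min libraries of replicates 3 and 4, 2 without replicates 3 and 4, 0 within replicates 5 and 6, and 2 to 5 leaving out 1 replicate. For the membrane over cytosol share (3) it was 1 with 2000 T, 5 without replicates 3 and 4, 5 within replicates 1 and 2, 1 within replicates 5 and 6, and 2 to 3 leaving out 1 replicate. For introns over exons (4) it was 2 with 2000 T, 8 within replicates 1 and 2, where more members could be tested, and 4 to 5 leaving out 1. The nuclear level over time (1) gave 0 to 1, the level between replicate pairs at 20 min (5) 2 to 6, the membrane level (4) 4 to 5 and the nuclear level over cytosol (5) 5 to 6. The median apparent half-life (72.36 min) was 81.36 with no delay, 52.59 with 2000 T, where 5 members were left, 55.45 with the 120 min libraries of replicates 3 and 4, 60.98 without replicates 3 and 4, and 70.01 to 75.19 leaving out 1. Direction reversed for Smad6 in the nuclear over cytosolic level within replicates 1 and 2 (-0.54) and, within replicates 5 and 6, in the cytosol over nucleus share of Id2 (0.06), Skil (0.14) and Smad6 (0.09). The causes were not tested.

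A replicate block, 1 term per culture or per replicate, changed no count of called members: 4 for the membrane level, 5 for the nuclear level, 4, 3 and 4 for the shares, and 0 and 1 for levels over time in whole cells and nucleus. Samples of one replicate number deviated together over time in 6 of 10 whole-cell and 7 of 10 nuclear pairs at r above 0.1. Over all genes, calls at 120 against 20 min in whole cells were 19, 113 with DESeq2 and 227 with no filter.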
